A study of Mus musculus with 25 samples.

Results

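The genes described here are 8 genes listed as smooth muscle contractile genes, Myh11, Acta2, Actg2, Tagln, Cnn1, Des, Smtn and Flna, read on Illumina bead arrays of mouse intestine. They are 8 of the 17899 genes named on the array and were chosen by name, with earlier results of these data known. All of their probes were taken, 13 of the 25697 probes of the array. There were 4 for Acta2, 3 for Smtn and 1 for each of the other 6 genes. All 13 probes passed the detection filter (detection p under 0.05 on at least 3 arrays), which 15318 probes of 11227 genes passed. The 25 arrays hold total RNA of intestinal tissue from female C57Bl/6 mice, aged 6 to 8 weeks and fed a gel diet for 5 days before surgery. For the loops, 2.5 cm of ileum lying 3 cm above the ileocecal junction was cut free and sewn to the ileum, and tissue was taken 5 weeks later. By general surgical usage a self-filling loop is one in which content collects, and a self-emptying loop drains. Sham mice had the abdomen opened without surgery on the gut. The groups were TLR4 knockout self-filling loops (n = 3), TLR4 knockout self-emptying loops (n = 3), loops labelled IL10 knockout with self-filling (n = 3) and with self-emptying (n = 3), wild type self-filling loops (n = 3), wild type self-emptying loops (n = 4), wild type sham-operated cecum (n = 3) and wild type sham-operated ileum (n = 3). TLR4 is the receptor for bacterial lipopolysaccharide, and IL10 is a cytokine that restrains inflammation. The labels give the knockouts by gene name and do not say how the alleles were made or name a cell type for the loss.

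Smooth muscle of the gut wall shortens when calcium activates myosin light chain kinase, and the smooth muscle myosin then pulls on actin filaments anchored in dense bodies and dense plaques. In the intestine this muscle lies in the circular and longitudinal layers of the muscularis, in the thin muscularis mucosae and around blood vessels. Its contractile genes are switched on together by serum response factor and its partner myocardin, which act through short DNA elements called CArG boxes. Levels of these genes in a piece of gut wall are known to follow how much muscle the piece holds and how differentiated that muscle is.

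Levels are given as normalized log2 intensity, on which a difference of 1 is a change of 2-fold, and the probe with the highest mean stands for a gene with several probes. A level compares arrays for one probe, and not one gene with another. Between 12123 and 13627 probes were detected per array, and arrays of a group correlated at r between 0.968 and 0.992 over all probes. Of the probes of the 8 genes, 12 were detected on all 25 arrays, and the Cnn1 probe on 18, with 1 of the 3 wild type self-filling loops among them. Array codes begin with MX on the 6 TLR4 knockout arrays and with MW on the other 19, so TLR4 genotype and code prefix cannot be told apart. The Tlr4 probe that was measurable lay at 4.40 ± 0.15 in TLR4 knockout and 5.40 ± 0.23 in wild type self-filling loops (SD, n = 3 each). Detection of the Il10 probe was limited to the 6 arrays with the IL10 knockout label. How this bears on the label cannot be told, because the probe's place within the gene and the kind of allele are not known here. Whether each replicate is its own animal is not stated in the labels, so the p-values reflect only how these samples vary, and that variation may be technical. Among striated muscle markers, Acta1, the skeletal muscle actin, was detected on 18 arrays, Tnni2 on 21, Mylpf on 20 and Ckm on 16. Myh2 and Tnnt3 were detected on 3 arrays each and Actc1 on 2, while Myh1, Myh4, Tnnc2, Mb and Casq1 were detected on none.

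The 8 genes moved up and down together from array to array within every group. On 20 of the 25 arrays all 8 lay on the same side of their group mean, above it on 10 arrays and below it on 10, as the map of deviations shows. The mean of the 8 genes was 8.53, 10.55 and 10.02 in the self-filling loops labelled IL10 knockout and 11.04, 9.45 and 9.80 in the self-emptying loops of that label. In wild type self-filling loops it was 8.81, 10.15 and 8.75, so that replicate 2 stood far above the other two. Wild type self-emptying loops had 9.36, 9.74, 10.13 and 10.23. Among all arrays the mean spanned 2.50 log2 units, between 8.53 and 11.04. The spread around the group means was 0.44 to 0.82 log2 per probe, larger than that of 91.7 to 99.2% of tested probes. Bead-to-bead error was small beside it, with a median standard error of 2.70 to 4.55% of the signal per probe. Each comparison is therefore read against a spread between samples that few other probes have.

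**Figure D1:**
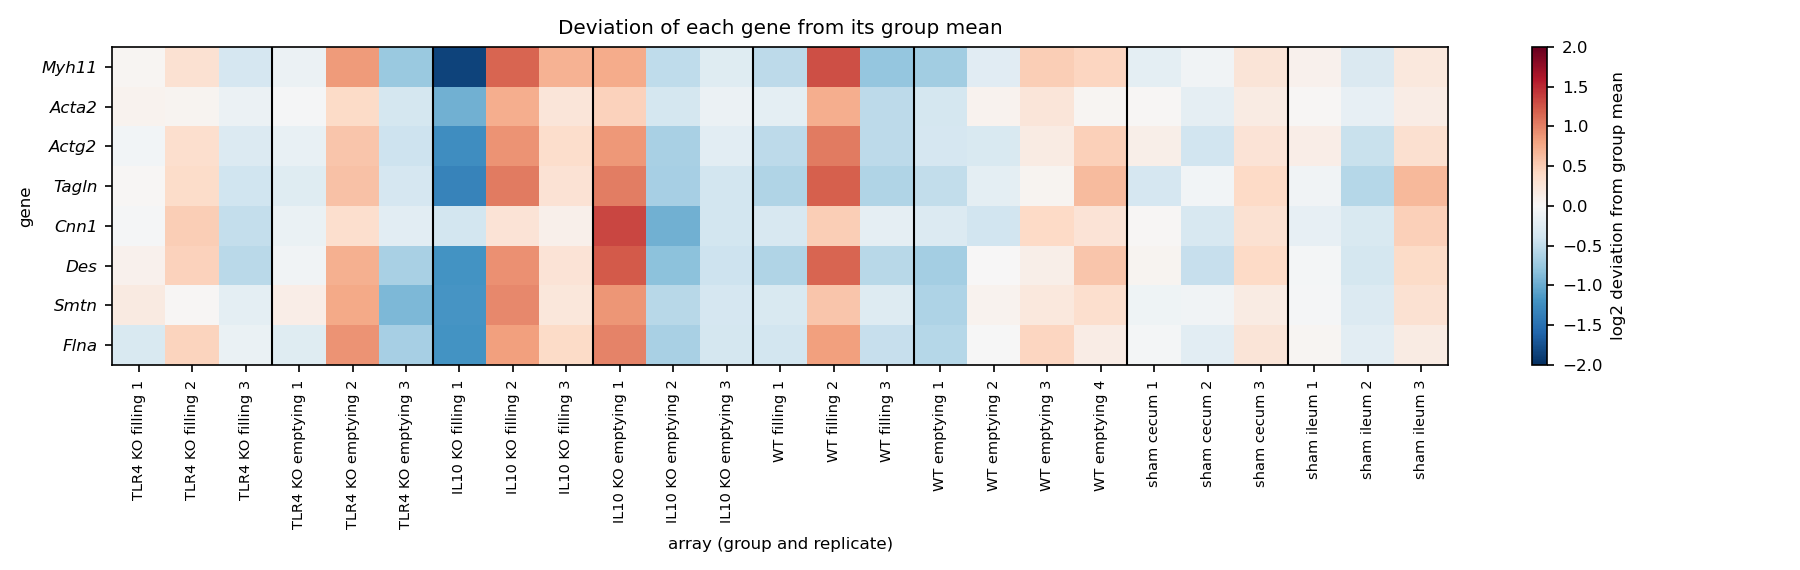
Deviation of the level of each gene from its group mean (colour, log2 units) on each of the 25 arrays, grouped by the 8 groups with replicate numbers. All 8 genes share the colour side on 20 arrays, and replicate 1 of the self-filling loops labelled IL10 knockout and replicate 2 of the wild type self-filling loops stand out.

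Set against the group means, the 28 pairs of genes correlated at r between 0.677 and 0.970 over the 25 arrays, and the 21 pairs without Cnn1 at 0.896 or more. Arrays share labelling and normalization, so these correlations are a description. Cnn1 (calponin, which binds actin and inhibits myosin) had the weakest link to the mean of the other 7, at r 0.793, and its probe is the one near background. Outside the 8 genes, those most like their mean in this way were Synm (r 0.988), an intermediate filament protein that partners desmin, Pdlim3 (0.976), an actinin-binding protein, and Tpm2 (0.967), a tropomyosin. Next came Cd59a (0.956), Csrp1 (0.955), Hspb6 (0.950), Lmod1 (0.947), Popdc2 (0.942), Tpm1 (0.941) and LOC100046741 (0.936). Of whole gene lists, the mean of 13 myosin and thin filament regulators followed the 8 genes at r 0.986 and that of 17 dense plaque and filament genes at 0.958. The mean of pericyte markers followed at 0.891, that of endothelial markers at 0.738, fibroblast markers at 0.694, leukocyte markers at 0.205 and epithelial markers at 0.031. The signal ratio, which divides an array's 95th percentile of intensity by its median, had r -0.507. Without subtracting group means, r was 0.769 for pericyte, 0.783 for endothelial, 0.699 for fibroblast and 0.135 for leukocyte markers. It was -0.494 for epithelial markers and -0.676 for the signal ratio.

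Promoters are shown because the 8 genes moved together and CArG boxes are the shared element known for this programme. The RefSeq table used here (GRCm38.p6) holds 5 of the 8 genes, Acta2, Cnn1, Des, Smtn and Flna, with 250 bases before and 50 after an annotated start. For Des and Smtn that start is the edge of the gene. For Acta2, Cnn1 and Flna it lies inside the gene's annotated span, so other starts of these genes were not searched. The box was searched as CC, then 6 bases of A or T, then GG, which reads the same on both strands, and also with 1 G or C allowed among those 6. No promoter of the 5 held the strict box, against 1.63% of all 32851 promoters. With 1 G or C allowed, Acta2 held 2 boxes, starting 84 and 34 bases before the annotated start, and the other 4 genes held 0, against 9.98% of all promoters with at least 1. The Acta2 window lies at chr19:34255324-34255623 on the minus strand, and the Des window at chr1:75360042-75360341 on the plus strand. Capitals mark the boxes in Acta2, and Des, whose level is set against that of Myh11 further on, is shown for comparison, without capitals. A match is only a run of letters, and its absence from a window says nothing about more distant elements.
Acta2: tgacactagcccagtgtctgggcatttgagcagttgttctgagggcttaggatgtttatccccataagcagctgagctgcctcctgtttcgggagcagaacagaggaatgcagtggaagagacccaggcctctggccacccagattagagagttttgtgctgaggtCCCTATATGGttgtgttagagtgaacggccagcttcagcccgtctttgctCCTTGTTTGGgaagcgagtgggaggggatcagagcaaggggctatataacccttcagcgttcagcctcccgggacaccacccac
Des: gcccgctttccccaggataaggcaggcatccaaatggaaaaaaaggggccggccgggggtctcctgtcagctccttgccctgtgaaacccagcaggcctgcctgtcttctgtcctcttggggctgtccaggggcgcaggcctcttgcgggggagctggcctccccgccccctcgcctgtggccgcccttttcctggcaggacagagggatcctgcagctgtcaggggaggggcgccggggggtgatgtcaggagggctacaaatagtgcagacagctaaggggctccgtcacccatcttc

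Across the 8 groups, TLR4 knockout self-filling loops and sham cecum held the highest mean of all 8 genes between them, and wild type self-filling loops the lowest mean of 6. Myh11, the smooth muscle myosin heavy chain that drives contraction, was 11.54, 11.80 and 11.16 in TLR4 knockout self-filling loops and 11.18, 12.15 and 10.55 in TLR4 knockout self-emptying loops. It was 8.35, 11.36 and 10.90 in self-filling and 11.47, 10.23 and 10.50 in self-emptying loops labelled IL10 knockout. In wild type it was 8.79, 10.60 and 8.53 in self-filling loops, 10.11, 10.57, 11.28 and 11.22 in self-emptying loops, 11.30, 11.42 and 11.75 in sham cecum and 11.33, 10.95 and 11.46 in sham ileum. The lowest Myh11 levels of the whole set were thus on 2 wild type self-filling arrays and 1 self-filling array labelled IL10 knockout. Ordered by mean, Myh11 ran from TLR4 knockout self-filling loops through sham cecum, TLR4 knockout self-emptying loops, sham ileum, wild type self-emptying loops and both groups labelled IL10 knockout to wild type self-filling loops, and all 7 pairs of neighbours overlapped. For the other genes too, neighbours in the order of means overlapped, except for Tagln between TLR4 knockout self-filling and self-emptying loops.

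Acta2, the smooth muscle alpha actin, averaged 14.10 ± 0.10 in TLR4 knockout self-filling loops, 12.89 ± 0.65 in wild type self-filling loops and 13.71 ± 0.15 in sham ileum (SD, n = 3 each). Actg2, the gamma actin typical of gut smooth muscle, averaged 13.63 ± 0.31, 12.08 ± 0.90 and 12.55 ± 0.40 in those groups. Smtn, smoothelin, a filament protein of fully contractile cells, averaged 10.15 ± 0.19, 8.45 ± 0.48 and 9.24 ± 0.29 there. Cnn1 had the narrowest range of group means, with 5.69 in TLR4 knockout self-filling loops and 4.86 in wild type self-filling loops at its ends, near the floor of the scale.

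**Figure D2:**
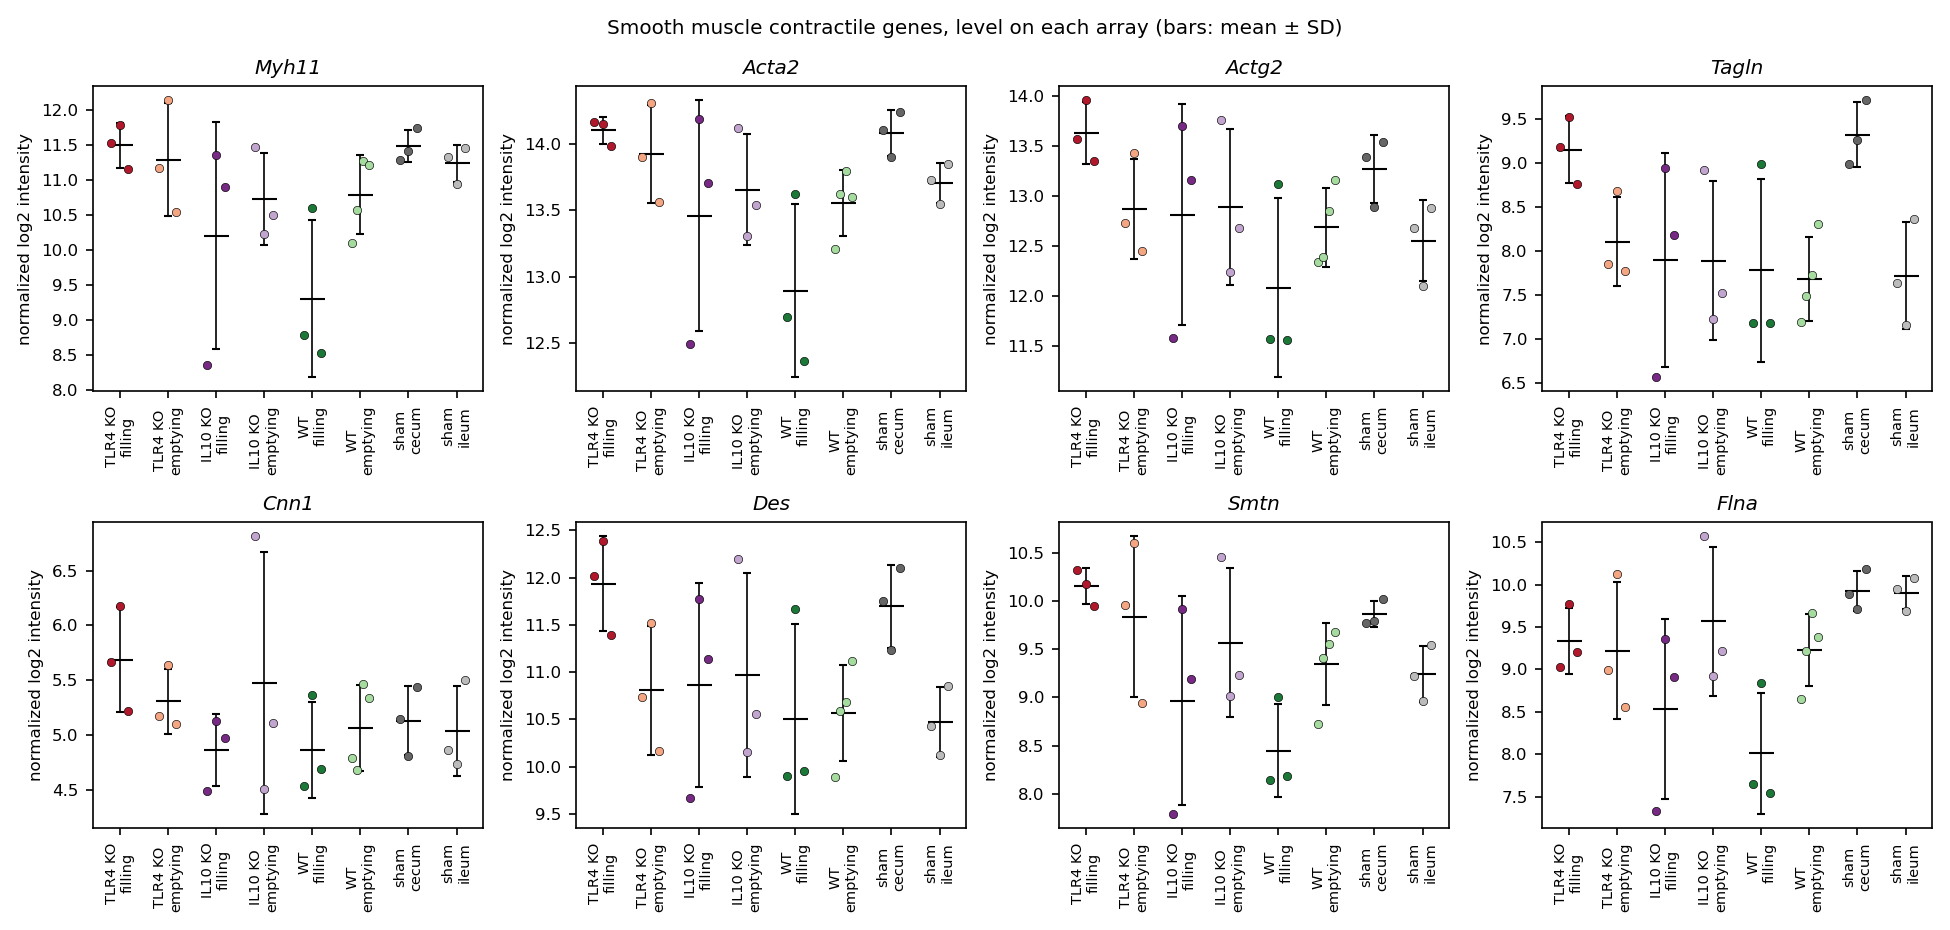
Normalized log2 intensity of each gene (one panel each, with its own axis) on every array of the 8 groups, with bars for mean ± SD. In wild type self-filling loops 2 of the 3 arrays lie low and replicate 2 lies high for every gene.

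Wild type self-filling loops against sham ileum compare a loop in which content stands with ileum of mice that had only the abdomen opened. Of the 8 genes, 2 fell and 0 rose, where 18.1% of all tested probes changed and 8.34% fell. Flna, filamin A, which crosslinks actin and ties it to membranes, was 7.65, 8.84 and 7.55 in self-filling loops, against 9.95, 9.69 and 10.08 in sham ileum. It fell by 1.89 on the log2 scale (SE 0.48, 3.72-fold, adjusted p = 0.0109 in limma). Myh11 fell by 1.94 (SE 0.60, 3.84-fold, adjusted p = 0.0306). For both genes every self-filling array lay below every sham array, as did the arrays of 42.2% of tested probes in one direction or the other. Because this is RNA of whole tissue pieces, fewer cells that express these genes and less of their RNA per cell cannot be told apart.

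The other contractile genes did not pass in that comparison, and their estimates spread widely. The actin Acta2 stood at -0.81 ± 0.33 (95% interval -1.501 to -0.127, adjusted p = 0.0893), Smtn at -0.80 ± 0.45 and Actg2 at -0.47 ± 0.47. Tagln, transgelin, an actin-bundling protein also called SM22, stood at 0.06 ± 0.54 (interval -1.07 to 1.20), and Des, desmin, the muscle intermediate filament, at 0.04 ± 0.55 (interval -1.11 to 1.19). The 4 Acta2 probes did not agree on the call. The probes ILMN_2710354 (-1.496 ± 0.434, adjusted p = 0.0226) and ILMN_2710353 (-1.37 ± 0.43, adjusted p = 0.0325) passed, and ILMN_2923445 (-0.76 ± 0.40) and the probe that stands for the gene did not. The median change over the 8 genes was -0.63, against 0.04 over all 11227 tested genes. Flna passed in 5 of 6 fits that left out 1 array of these groups and Myh11 in 1 of 6, with estimates of -2.59 to -1.55 for Myh11. Without wild type self-filling replicate 3 none of the 8 passed, and without replicate 2 there were 3. Within the codes 1 to 8 the mean of the 8 genes was lower by -0.50 (2 self-filling arrays, 1 sham), and within the codes 17 to 23 by -1.56 (1 array each).

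Other parts of the muscle apparatus were read from a fixed set of gene lists, chosen with earlier results of these data known. Of 13 myosin and thin filament regulators 4 fell, among them Mylk, the myosin light chain kinase (-1.55 ± 0.44), Mrvi1, a target of nitric oxide signalling in muscle (-1.44 ± 0.46), and Itpr1, a calcium release channel (-0.89 ± 0.24). Of 10 ion channels and receptors 3 fell, namely Gucy1a1 (-1.20 ± 0.29) and Gucy1b1 (-0.82 ± 0.26), which form the nitric oxide receptor, and Pln, phospholamban (-0.83 ± 0.19). Of 17 dense plaque and filament genes 2 fell, among them the caveolin Cav1 (-1.32 ± 0.40), a share close to that of all probes. Of 8 transcription factors on the list kept for the programme 3 fell, Meis1 (-1.12 ± 0.39), Tcf21 (-1.10 ± 0.38) and the gut mesenchyme factor Foxf1 (-0.995 ± 0.259). Serum response factor and myocardin were not among those 3. No member of these 4 lists rose. These counts stand beside 8.34% of all tested probes that fell.

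Markers of other cells moved in the same arrays. Leukocyte markers fell in 5 of 9 tested cases, adipocyte markers in 3 of 6, fibroblast markers in 3 of 11 and endothelial markers in 2 of 9, and pericyte markers in 0 of 7, beside the same 8.34% of all probes. Of 11 epithelial markers Krt19, a keratin, rose (0.84 ± 0.16) and Vil1, villin, fell (-0.54 ± 0.17). The mean of the leukocyte markers lay between 5.10 and 5.64 in self-filling loops and between 6.09 and 6.83 in sham ileum, and that of the epithelial markers between 12.22 and 12.40 in self-filling loops and 12.08 and 12.19 in sham ileum. The signal ratio averaged 15.7 ± 0.50 in self-filling loops and 12.7 ± 0.32 in sham ileum (SD, n = 3 each), and with that ratio as a covariate 0 of the 8 genes passed. The part of these other cells in the fall of Flna and Myh11 was not tested.

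Wild type self-filling against self-emptying loops asks what standing content adds to the surgery. None of the 8 genes passed, where 10.4% of tested probes did in limma, and 4 of the 8 had an unadjusted p under 0.05. Flna stood at -1.22 ± 0.45 (adjusted p = 0.0847), Myh11 at -1.49 ± 0.56 (adjusted p = 0.0907), Smtn at -0.90 ± 0.42 and Acta2 at -0.66 ± 0.31. Des (-0.06 ± 0.52) and Tagln (0.10 ± 0.51) again lay near 0. Self-filling replicate 2 lay within or above the range of the self-emptying arrays for each gene, and without it 3 of the 8 passed. The mean of the 8 genes differed by 0.11 within the codes 1 to 8 (2 self-filling arrays, 1 self-emptying) and by -1.47 within the codes 17 to 23 (1 each). Among the fixed muscle lists, Gucy1a1 (-1.41 ± 0.27), Mrvi1 (-1.42 ± 0.43), Cav1 (-1.27 ± 0.38) and Chrm2, a muscarinic acetylcholine receptor of gut muscle (-1.07 ± 0.33), were among the 7 of 40 genes that fell, beside 4.77% of all probes. Self-emptying loops against sham ileum gave 0 passing genes of 8, and 0 with an unadjusted p under 0.05, where 0.0131% of tested probes passed in limma. Estimates there ran between -0.68 for Flna and 0.13 for Actg2. Flna was 8.65, 9.21, 9.66 and 9.38 in self-emptying loops, all below sham ileum, and 11.2% of probes had no overlap in one direction or the other.

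**Figure D3:**
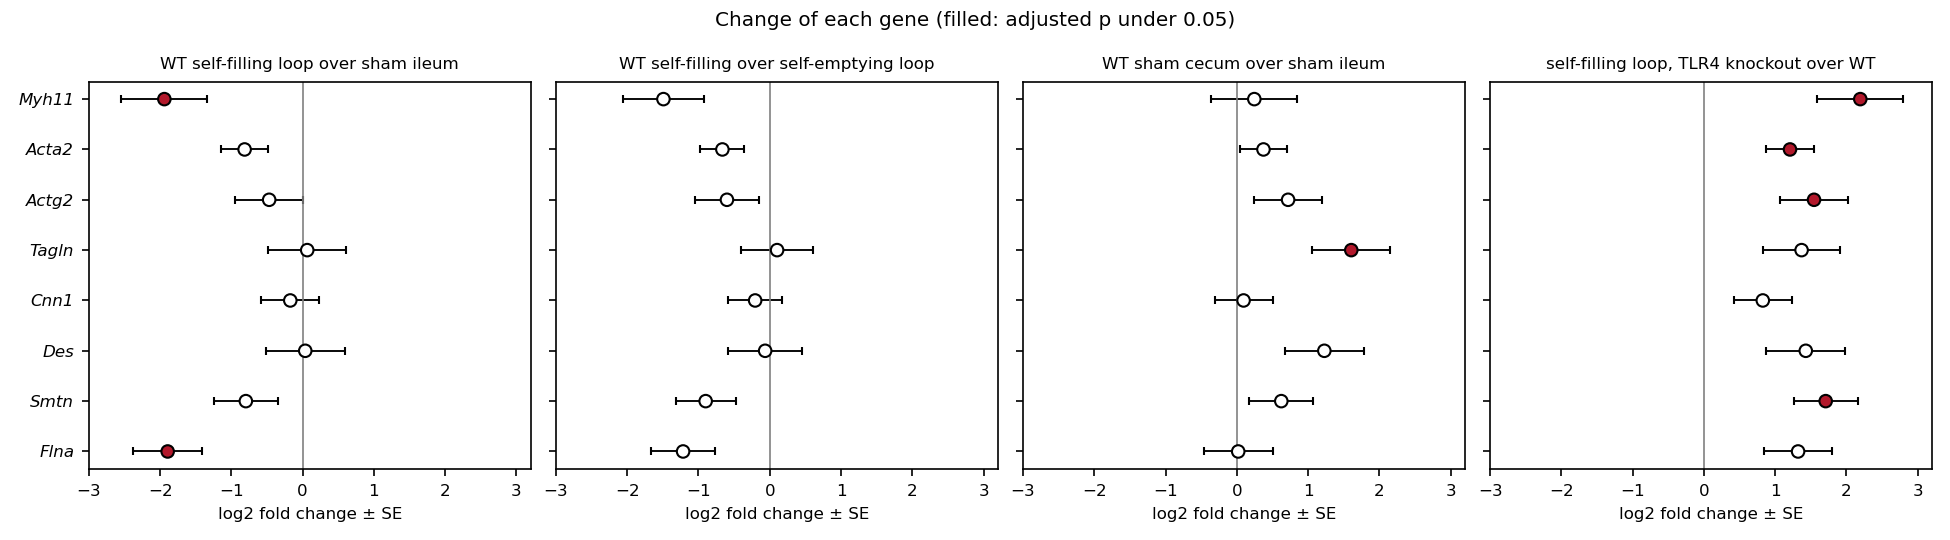
Log2 fold change ± SE of each gene in 4 comparisons, with filled points for an adjusted p under 0.05. Flna and Myh11 lie farthest left in wild type self-filling loops, while Tagln and Des lie near 0 there and farthest right in sham cecum.

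The 8 genes did not shift by one common amount between groups: in wild type self-filling loops 6 of the other 7 stood higher relative to Myh11 than in sham ileum, Des and Tagln with the largest mean differences, and Flna did not. This was noticed in the levels, so the within-array differences are given as a description, with the sham ileum mean set to 0. Des minus Myh11 was 1.89, 1.84 and 2.20 in wild type self-filling loops, 0.56, 0.79, 0.17 and 0.67 in wild type self-emptying loops and -0.12, -0.05 and 0.18 in sham ileum. Replicate 2 of the self-filling loops, which had far more Myh11 signal than the other two, had a Des difference close to theirs. In TLR4 knockout mice the difference was 1.26, 1.37 and 1.01 in self-filling loops and 0.34, 0.15 and 0.39 in self-emptying loops, without overlap. In loops labelled IL10 knockout it was 2.10, 1.19 and 1.01 with self-filling and 1.497, 0.71 and 0.84 with self-emptying, with overlap. Tagln minus Myh11 was 1.91 to 2.18 in wild type self-filling loops, -0.02 to 0.61 in wild type self-emptying loops and -0.27 to 0.43 in sham ileum. Actg2 minus Myh11 was 1.22 to 1.73 in wild type self-filling loops, 0.26 to 0.93 in self-emptying loops and -0.15 to 0.11 in sham ileum, also without overlap. The mean difference from Myh11 in wild type self-filling loops was 1.13 for Acta2, 1.14 for Smtn and 1.77 for Cnn1, whose probe is near background, and 0.05 for Flna. For Acta2 and Smtn the self-filling loops overlapped the self-emptying loops, and every self-filling array lay above sham ileum. In replicate 2 of the wild type self-filling loops the difference was 0.56 for Acta2, against 1.45 and 1.37 in replicates 1 and 3. For Smtn it was 0.41 there, against 1.36 and 1.66, and for Cnn1 0.97, against 1.96 and 2.37. Replicate 2 thus lay below the other replicates for these genes. Most of the 8 genes thus departed from Myh11, but every difference subtracts the same Myh11 levels, so the differences are not separate observations.

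**Figure D4:**
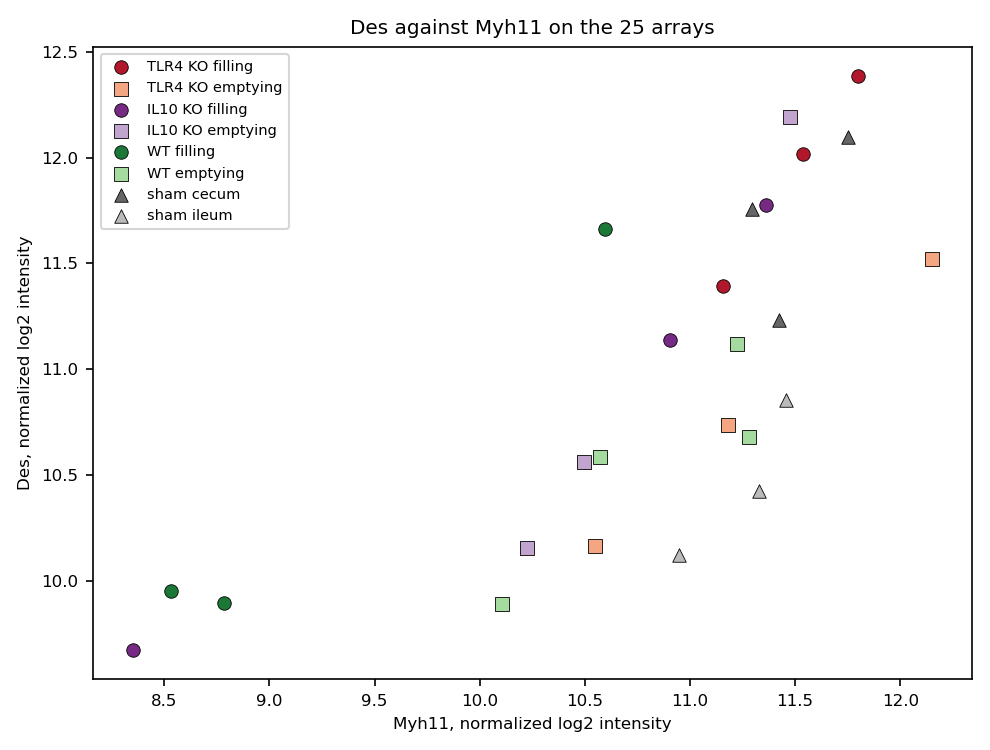
Des against Myh11, both as normalized log2 intensity, on the 25 arrays by group (circles for self-filling loops, squares for self-emptying loops, triangles for sham tissue). Wild type self-filling loops lie along a line above wild type self-emptying loops and sham ileum, including replicate 2 with its higher Myh11. Sham cecum also lies above sham ileum.

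A second fit asked for each gene at a given amount of muscle signal, on the same arrays, so that it gives no independent support to those differences. It added as a covariate the mean level of 40 other muscle genes of the array, which averaged 7.40 ± 0.32 in wild type self-filling loops and 7.96 ± 0.09 in sham ileum (SD, n = 3 each). Of those genes 4 of 13, 3 of 10 and 2 of 17 fell themselves in this comparison. The 8 genes moved by 1.52 (Acta2) to 2.80 (Myh11) log2 units per unit of that mean within groups. Myh11 had the steepest slope, so a difference from Myh11 also shifts with that mean within groups. Des stood at 0.04 without the covariate and had a slope of 2.64, so nearly all of its fitted value is that slope times the difference in the covariate, and its p-value holds only if the covariate measures the amount of muscle, which was not tested. Against sham ileum, Des then stood 1.504 ± 0.181 higher in wild type self-filling loops (adjusted p = 0.000121) and Tagln 1.43 ± 0.27 higher (adjusted p = 0.00443). Actg2 also passed (0.74 ± 0.21, adjusted p = 0.0332), and Flna passed lower (-0.64 ± 0.19, adjusted p = 0.0375), while Myh11 (-0.38 ± 0.25) and Acta2 (0.03 ± 0.15) did not. These 4 of 8 stand beside 9.71% of tested probes past that fit. Against self-emptying loops, Des (1.25 ± 0.17, adjusted p = 0.000851) and Tagln (1.33 ± 0.25, adjusted p = 0.00632) passed, 2 of 8, beside 4.02% of probes.

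In fits that left out 1 array of the compared groups, added after seeing the data, Des and Tagln passed in 6 of 6 fits against sham ileum and in 7 of 7 against self-emptying loops. Actg2 passed in 2 of 6 and Flna in 0 of 6. In TLR4 knockout mice Des was 0.88 ± 0.16 higher in self-filling than self-emptying loops at a given muscle signal (adjusted p = 0.0191), beside 0.183% of probes, and passed in 3 of 6 such fits. In loops labelled IL10 knockout the same difference was 0.66 ± 0.16 (adjusted p = 0.0327), beside 2.69% of probes, and passed in 1 of 6. The Acta2 probe ILMN_2923445 passed there too (0.80 ± 0.19, adjusted p = 0.025), and the other 3 Acta2 probes did not. Tagln stood at 0.82 ± 0.23 (adjusted p = 0.171) and 0.72 ± 0.24 (adjusted p = 0.111) there. The difference between the self-filling effects of genotypes did not pass for Des, at -0.37 ± 0.23 for TLR4 knockout minus wild type and -0.59 ± 0.22 for IL10 label minus wild type, where 0% and 3.98% of probes passed. Self-emptying loops against sham ileum (0.0261% of probes) and TLR4 knockout against wild type self-emptying loops (6.59% of probes) had 0 of 8 genes past that fit.

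Sham cecum against sham ileum compares normal large and small intestine. Tagln was 8.99, 9.27 and 9.72 in cecum, against 7.64, 7.15 and 8.36 in ileum, without overlap. It was 3.04-fold higher (1.61 ± 0.54, adjusted p = 0.0322), the only one of the 8 to pass, where 26.1% of tested probes changed and 14.9% rose. Des was 11.76, 11.23 and 12.10 in cecum and 10.43, 10.12 and 10.86 in ileum, again without overlap, as for 44.4% of probes, and did not pass (1.23 ± 0.55, adjusted p = 0.112). Acta2 was 13.90 to 14.24 in cecum and 13.55 to 13.85 in ileum. Actg2 was 12.89 to 13.54 in cecum and 12.10 to 12.88 in ileum, and Smtn 9.78 to 10.02 and 8.97 to 9.54. Acta2, Actg2 and Smtn thus also lay higher in cecum without overlap, and did not pass. Myh11 (0.24 ± 0.60) and Flna (0.02 ± 0.48) lay near 0. At a given level of the other muscle genes both Tagln (1.22 ± 0.23, adjusted p = 0.000356) and Des (0.82 ± 0.16, adjusted p = 0.00042) were higher in cecum, 2 of 8 beside 26.9% of probes, and passed in 6 of 6 fits with an array left out. Tagln without the covariate passed in 2 of 6 such fits and did not pass once the signal ratio was added to the model. The signal ratio averaged 10.3 ± 0.92 in cecum and 12.7 ± 0.32 in ileum (SD, n = 3 each).

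Neighbouring muscle genes differed between the 2 tissues in both directions. Of the 17 dense plaque and filament genes, Fhl1 (2.46 ± 0.44), a LIM domain protein, Parva (1.17 ± 0.20) and Itga7 (1.05 ± 0.26), a laminin receptor of muscle, rose in cecum and Itgb1 fell (-1.07 ± 0.27). Of the regulators, Ppp1r14a, the inhibitor of myosin phosphatase CPI-17 (1.38 ± 0.44), and Itpr1 (1.13 ± 0.24) rose and the kinase Rock2 fell (-0.89 ± 0.23). Of the channels and receptors, the potassium channel Kcnma1 rose (0.68 ± 0.20), and Pde5a (-0.70 ± 0.18) and the muscarinic receptor Chrm3 (-0.63 ± 0.20) fell. Ano1, a chloride channel of pacemaker cells that epithelium can also express, rose by 3.06 ± 0.29, and Etv1, the other tested marker of those cells, did not pass (-0.19 ± 0.13). Of 11 epithelial markers, 1 rose and 4 fell, with Vil1 at -1.62 ± 0.17, and leukocyte markers fell in 2 of 9 cases. Of all probes 14.9% rose and 11.2% fell.

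TLR4 knockout against wild type self-filling loops showed 4 of the 8 genes higher, where 10.6% of tested probes changed and 3.88% rose. Myh11 rose 4.57-fold (2.19 ± 0.60, adjusted p = 0.0239), Smtn 3.27-fold (1.71 ± 0.45, adjusted p = 0.0187), Actg2 2.92-fold (1.54 ± 0.47, adjusted p = 0.0408) and Acta2 2.31-fold (1.21 ± 0.33, adjusted p = 0.0237). Acta2 was 14.17, 14.15 and 13.99 in TLR4 knockout loops, against 12.70, 13.62 and 12.37 in wild type loops. Actg2 was 13.57, 13.96 and 13.35 in TLR4 knockout loops, against 11.57, 13.12 and 11.56 in wild type loops, and Smtn 10.33, 10.18 and 9.95 against 8.15, 9.01 and 8.19. For these genes and Flna every knockout array lay above every wild type array, as for 30.8% of probes in one direction or the other. Flna (1.32 ± 0.48, adjusted p = 0.0823), Des (1.43 ± 0.55, adjusted p = 0.103), Tagln (1.37 ± 0.54, adjusted p = 0.112) and Cnn1 (0.83 ± 0.41) did not pass. Of the other probes, those of Smtn passed (ILMN_2955973 at 1.65 ± 0.46, ILMN_2621581 at 1.30 ± 0.38), as did ILMN_2923445 (1.53 ± 0.40) and ILMN_2710354 (1.45 ± 0.43) of Acta2, and ILMN_2710353 did not (1.08 ± 0.43). Neither of these Smtn probes passed in any of the other comparisons.

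The size of that group of genes depended on single arrays. Without wild type self-filling replicate 2, 7 of the 8 passed, without TLR4 knockout replicate 2 there was 1, and without TLR4 knockout replicate 1 or wild type replicate 1 or 3 there were 0. Estimates kept their sign throughout, with Myh11 between 1.81 and 2.84. With the replicate number as a block 3 passed and Actg2 was lost. At a given level of the other muscle genes 0 of the 8 passed, the median of the 8 changed to 0.02, and the covariate itself averaged 8.04 ± 0.14 in TLR4 knockout and 7.40 ± 0.32 in wild type self-filling loops (SD, n = 3 each). Beside it, 2.91% of probes passed that fit. Under the signal ratio as covariate 0 passed as well. That ratio was 11.2 to 12.4 in TLR4 knockout and 15.3 to 16.3 in wild type self-filling loops.

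The other muscle lists rose in the same comparison in 4 of 13 regulators (Mrvi1 at 1.498 ± 0.464, the small heat shock protein Hspb6 at 1.49 ± 0.39 and Mylk at 1.47 ± 0.44), 2 of 10 channels and receptors (Chrm2 at 1.57 ± 0.35, Gucy1a1 at 1.05 ± 0.29) and 5 of 17 dense plaque genes (Pdlim3 at 1.61 ± 0.44, Pdlim7 at 1.48 ± 0.40, Csrp1 at 1.31 ± 0.41). Endothelial markers rose in 4 of 9 cases, led by Cldn5, claudin 5 (1.65 ± 0.38), and pericyte markers in 2 of 7, Mcam and Abcc9. Epithelial markers fell in 5 of 11 cases, with the tetraspanin Tspan8 at -1.38 ± 0.14, and fibroblast and leukocyte markers changed in 0 of 11 and 0 of 9. Of all probes 3.88% rose and 6.68% fell in this comparison. The part of these cells in the muscle gene difference was not tested.

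Self-emptying loops of TLR4 knockout against wild type mice gave 0 of 8 passing genes in limma, where 5.57% of probes passed, with 0 at an unadjusted p under 0.05. Myh11 stood at 0.50 ± 0.56 and Flna at -0.01 ± 0.45. Self-filling against self-emptying loops within TLR4 knockout mice also gave 0 of 8, and 0 at an unadjusted p under 0.05, where 0.0849% of probes passed in limma. All 8 estimates were above 0, with Des at 1.12 ± 0.55 and Tagln at 1.05 ± 0.54, and Tagln did not overlap between the groups, as for 11.9% of probes. The test of the difference between genotypes in the self-filling effect, TLR4 knockout minus wild type, passed for 0 of 8 genes and for 0 of all 15318 probes in limma (0%). Of the 8, 1 had an unadjusted p under 0.05. Flna was not that gene, and its difference was 1.33 ± 0.66 with an interval from -0.04 to 2.70.

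The mean of the 8 genes had its largest SDs in loops labelled IL10 knockout (1.04 with self-filling and 0.83 with self-emptying, n = 3 each), and without a covariate none of the 8 genes passed in a comparison that used them. Self-filling against self-emptying loops of that label gave 0 of 8 in limma, where 4.24% of probes passed, with 1 gene at an unadjusted p under 0.05, Flna (-1.04 ± 0.48, adjusted p = 0.223). Flna was 7.33, 9.35 and 8.91 in the self-filling loops and 10.57, 8.92 and 9.22 in the self-emptying loops, which overlapped. Against wild type, self-filling loops gave 0 of 8 (11.5% of probes) and self-emptying loops 0 of 8 (8.68% of probes), each with 0 at an unadjusted p under 0.05. Myh11 stood at 0.90 ± 0.60 in self-filling and -0.06 ± 0.56 in self-emptying loops. Replicate 1 of the self-filling loops had Myh11 at 8.35, and without it 2 of the 8 genes passed against wild type, while the within-label median changed to 0.34, against -0.36 with all arrays. The self-filling effect, label minus wild type, gave 0 of 8 where 2.28% of probes passed, with 0.97 ± 0.83 for Myh11.

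Leukocyte markers rose in 5 of 9 cases in the self-filling loops labelled IL10 knockout against wild type, with C1qb at 2.77 ± 0.48 and Cd3g at 2.36 ± 0.47, and endothelial markers in 3 of 9, beside 5.44% of all probes that rose. Of the 40 other muscle genes of the lists none changed in that comparison. At a given level of those muscle genes, Des (0.58 ± 0.15, adjusted p = 0.0153) and Flna (0.49 ± 0.15, adjusted p = 0.0443) were higher in self-emptying loops labelled IL10 knockout than in wild type ones, 2 of 8 beside 10.3% of probes. In self-filling loops the Acta2 probes disagreed in that fit: ILMN_2923445 (0.94 ± 0.18, adjusted p = 0.00161), ILMN_2710354 (0.71 ± 0.20, adjusted p = 0.0208) and ILMN_2710353 (0.65 ± 0.19, adjusted p = 0.0293) passed against wild type, beside 13.3% of probes, and the probe that stands for Acta2 did not (0.36 ± 0.13, adjusted p = 0.0707). In self-emptying loops Des passed in 6 of 7 fits with an array left out and Flna in 1 of 7.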

How the data were processed

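The 25 arrays were Illumina bead arrays of biotin-labelled total RNA, extracted with Trizol per the labels' protocols. The deposited non-normalized table gives a mean bead intensity, a bead standard error, a bead count and a detection p-value per probe, per the file headers. The authors also deposited log2 values for 17612 probes, and limma is named in the submitters' processing notes. Other upstream steps are not given in the sources used here.

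Intensities were corrected with neqc of limma 3.58.1 in R 4.3.3 (normexp with negative-control statistics inferred from the detection p-values, offset 16, quantile normalization, log2). A single limma model, with 1 coefficient for each group, covered 25 arrays and 15318 probes, with Benjamini-Hochberg adjustment over all tested probes in each of 12 comparisons and a threshold of 0.05. The probe of highest mean stands for a gene. Probes of the 8 genes that do not stand for their gene are given where they passed. Of a list, counts are given and up to 3 passing genes with the largest changes may be named, except 1 gene that is not reported here. Members and lists were chosen with earlier results of these data known. The median number of beads per probe was 33 to 39, and precision is limited by how many arrays there are. The fit was tested on simulated data over 15318 probes: for wild type self-filling loops against sham ileum it recovered 75% of changes of 1 log2 unit and 95% of changes of 2. The changed probes were drawn at random from all tested probes, with independent noise. These shares therefore do not apply to the 8 genes, whose spread was larger than that of most probes and was shared among them. In 4 samples the number in the title differs from that in the description, and the title was used. Samples of different groups with the same title number correlated in their deviations between -0.41 and 0.40, and no pairing was used. By description number, self-filling and self-emptying loops labelled IL10 knockout correlated at 0.226, 0.304 and 0.023. By title number these were -0.268, -0.244 and -0.081, so whether these samples are paired is not settled.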

Additional observations from a re-analysis of the deposited data

Results flagged for a closer look

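Among the probes of the 8 genes, 1 sample stood far from the rest of its group. The Smtn probe ILMN_2621581, which does not stand for the gene, was at 6.88 in wild type self-emptying replicate 2, against 6.42 to 6.47 in the other 3 arrays. The gap was 0.887 of the range of the group. Chance flags about 1 in 20 groups in this way, and only the group of 4 arrays could be examined.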

How the results depend on the processing

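The number of the 8 genes past the test and their median change kept within the set limits under the authors' deposited values, quantile normalization without background correction, detection on all arrays of a group, 1 probe per gene and the replicate block. With the replicate block, 2 genes passed in wild type self-filling loops against sham ileum and 3 in TLR4 knockout against wild type self-filling loops. Direction was read only of values past the test. Without the detection filter 1 gene passed in self-filling loops against sham ileum and 0 in cecum. In fits of only the compared groups 4 passed in cecum and 2 in TLR4 against wild type self-filling loops. With array weights 4 passed in self-filling loops against sham ileum, 4 against self-emptying loops, 2 in cecum, 3 in self-filling loops labelled IL10 knockout against wild type and 7 for TLR4, and the median of the IL10 interaction was 0.94. With runs of 8 array codes as a block 1 passed in self-filling loops against sham ileum. That block could not be fitted for TLR4 against wild type. With the signal ratio as a covariate 0 passed in self-filling loops against sham ileum, in cecum and in TLR4 self-filling loops, where the median was 0.74. With the other muscle genes as a covariate, counts and medians were 4 and 0.54 (self-filling against sham ileum), 2 and 0.32 (against self-emptying), 1 and 0.27 (within the IL10 label) and 0 and 0.0208 (TLR4 self-filling). They were 2 genes in cecum, 1 within TLR4 knockout and 2 in self-emptying loops labelled IL10 knockout, and the TLR4 interaction median was -0.0405. In that fit Actg2 turned to 0.74 against sham ileum, Des to 1.25 against self-emptying loops and Des to 0.66 within the IL10 label. The cause was not tested.

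With each array left out in turn, counts ran from 0 to 3 in self-filling loops against sham ileum and against self-emptying loops, 0 to 1 in cecum, 0 to 2 in IL10 and 0 to 7 in TLR4 self-filling loops against wild type. Medians ran from -1.03 to -0.38 against sham ileum, -1.07 to -0.37 against self-emptying loops, 0.39 to 0.61 in cecum, 0.08 to 1.08 in IL10 and 1.12 to 1.98 in TLR4 self-filling loops. They ran from -0.66 to 0.34 within the IL10 label, 0.14 to 0.67 within TLR4 knockout, -0.22 to 0.54 and 0.07 to 0.55 in self-emptying loops (IL10, TLR4), -0.17 to 0.26 in self-emptying loops against sham ileum, and -0.21 to 0.83 and 0.82 to 1.64 in the interactions (IL10, TLR4).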
